A study of Mus musculus with 96 samples.

Results

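Cholesterol synthesis and handling is described here through 34 genes out of the 22709 in the deposited table. The genes were chosen by their known roles, with earlier results of these data known. They are 19 enzymes of sterol synthesis, 5 regulators of the SREBP transcription factors, 2 genes of sterol transport and uptake control, 4 genes of LXR signalling and cholesterol efflux, 2 genes of lysosomal export, and 2 genes of cholesterol turnover and esterification. Messenger RNA had been sequenced from mouse hippocampus and prefrontal cortex, 48 libraries each. In each tissue, offspring after maternal immune activation (MIA) or a saline injection had received either control treatment or PLX5622 (PLX), a Plexxikon inhibitor of the colony-stimulating factor 1 receptor CSF1R, on which microglia depend. With females and males apart this gave 16 groups of 6 libraries, except MIA control females with 7 and MIA control males with 5 in each tissue. The strain, age, litter, agent of immune activation and inhibitor schedule are not given in the sources used here. Nothing in the labels says whether libraries of a group came from separate litters. A p-value here therefore reflects library-to-library spread. For MIA, and for PLX if it was given by litter, it may be too small where animals shared a dam. In bulk tissue, fewer cells of a type and less RNA per cell cannot be told apart.

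Brain cholesterol is made locally, because lipoproteins of the blood hardly cross the blood-brain barrier. When sterols in the endoplasmic reticulum run low, the escort protein Scap carries SREBP2 (encoded by Srebf2) to the Golgi, where the factor is cut free and switches on the synthesis enzymes. Insig1 and Insig2 hold Scap back when sterols are plentiful, and Insig1 is itself an SREBP target. Oxysterols act the other way through the LXR receptors Nr1h2 and Nr1h3, which induce the efflux pumps Abca1 and Abcg1. Neurons dispose of cholesterol by hydroxylation through Cyp46a1.

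Recovered depth was even, at 22.2 to 26.7 M reads per hippocampal library and 22.8 to 25.9 M per cortical library. Expression is given as signal, the deposited count divided by a factor for each library, and a gene was called at a Benjamini-Hochberg adjusted p under 0.05 in limma over all genes tested. Some libraries stood apart by a high share of 86 ribosomal protein and 78 oxidative phosphorylation genes (1.23 to 1.41% of reads against 0.880 to 1.09% in hippocampus, 1.15 to 1.37% against 0.845 to 1.04% in cortex). They numbered 14 of 48 in hippocampus, 12 of them controls and 2 PLX, and 16 of 48 in cortex, 14 controls and 2 PLX, and 14 of their labels were shared by the tissues. These classes were defined from the data. Because they fell unevenly over the treatment, inhibitor values are also given with a term for them in the model and without those libraries. Of 10 microglia markers, 9 were called lower with PLX in each tissue averaged over the other factors, and with the class term 3 of the 10 were called lower in hippocampus and 6 in cortex.

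The promoters of Hmgcs1 and of 4 synthesis genes whose levels tracked it across libraries in both tissues are shown with those of Insig1 and the efflux pump Abca1. Windows of 250 bases before the transcription start came from RefSeq (GRCm38.p6, another build than the GRCm39 of the alignment) and matched 28 of the 34 genes, the others being Sqle, Fdft1, Fdps, Stard4, Npc1 and Abcg1. They were searched on both strands for CCAAT, the box bound by NF-Y, a partner of SREBP, and for CACNCCAC, a core of the sterol regulatory element. Capitals mark these matches, on either strand. The genes and windows are Hmgcs1 (HMG-CoA synthase, chr13:119690101-119690350, plus strand), Idi1 (isopentenyl diphosphate isomerase, chr13:8885356-8885605, plus), Msmo1 (methylsterol monooxygenase, chr8:64733579-64733828, minus), Cyp51 (lanosterol demethylase, chr5:4104698-4104947, minus), Sc5d (sterol desaturase, chr9:42264301-42264550, minus), Insig1 (chr5:28071162-28071411, plus) and Abca1 (chr4:53159896-53160145, minus).
Hmgcs1: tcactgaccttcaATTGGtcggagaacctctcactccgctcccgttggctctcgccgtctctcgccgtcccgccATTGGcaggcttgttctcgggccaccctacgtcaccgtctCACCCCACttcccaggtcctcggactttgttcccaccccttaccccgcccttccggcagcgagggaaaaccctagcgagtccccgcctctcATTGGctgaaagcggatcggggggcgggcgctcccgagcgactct
Idi1: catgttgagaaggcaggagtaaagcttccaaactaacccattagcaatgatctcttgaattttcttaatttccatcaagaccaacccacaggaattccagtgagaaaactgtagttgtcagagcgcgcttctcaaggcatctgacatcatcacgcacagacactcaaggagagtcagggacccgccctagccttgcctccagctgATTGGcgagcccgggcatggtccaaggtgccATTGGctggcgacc
Msmo1: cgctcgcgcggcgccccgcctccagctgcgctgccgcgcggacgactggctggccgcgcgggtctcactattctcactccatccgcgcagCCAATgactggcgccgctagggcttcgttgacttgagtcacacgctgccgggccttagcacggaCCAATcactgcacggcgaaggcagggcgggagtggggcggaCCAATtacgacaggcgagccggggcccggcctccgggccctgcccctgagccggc
Cyp51: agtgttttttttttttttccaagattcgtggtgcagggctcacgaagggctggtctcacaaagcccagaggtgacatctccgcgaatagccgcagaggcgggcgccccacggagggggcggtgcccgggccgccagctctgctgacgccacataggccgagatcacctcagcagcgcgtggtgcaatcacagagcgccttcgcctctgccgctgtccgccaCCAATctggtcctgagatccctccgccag
Sc5d: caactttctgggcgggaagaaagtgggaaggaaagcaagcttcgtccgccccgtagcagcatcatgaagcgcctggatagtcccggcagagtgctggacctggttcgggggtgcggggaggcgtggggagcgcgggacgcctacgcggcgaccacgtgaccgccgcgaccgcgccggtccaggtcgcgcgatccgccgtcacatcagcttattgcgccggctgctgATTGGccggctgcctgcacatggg
Insig1: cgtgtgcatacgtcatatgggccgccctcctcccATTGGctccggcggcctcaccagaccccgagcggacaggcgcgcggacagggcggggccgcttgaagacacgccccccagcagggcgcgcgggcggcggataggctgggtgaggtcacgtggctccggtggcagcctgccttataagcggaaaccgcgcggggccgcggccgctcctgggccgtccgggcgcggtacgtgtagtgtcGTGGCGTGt
Abca1: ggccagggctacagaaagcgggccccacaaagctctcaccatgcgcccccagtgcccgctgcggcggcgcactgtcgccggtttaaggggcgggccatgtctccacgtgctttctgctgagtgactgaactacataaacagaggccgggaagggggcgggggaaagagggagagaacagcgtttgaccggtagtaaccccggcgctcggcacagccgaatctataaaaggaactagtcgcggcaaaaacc
CCAAT was in at least 1 window of 15 of the 16 synthesis genes with a window, against 37.5% of 27018 genes, and in 0 of the 3 LXR and efflux genes with one (Abca1, Nr1h2 and Nr1h3). It was not particular to synthesis, being in 23 of the 28 genes. Among these were 4 of 5 SREBP regulators, 2 of 2 genes of turnover and esterification, and Mylip and Npc2. GGGCGG, the GC box bound by Sp1, was in 14 of the 16 synthesis genes against 35.4% of all genes. It too was in 23 of the 28 genes, with 5 of 5 SREBP regulators among them. CACNCCAC was found in 3 of the 28 genes, Acat2, Hmgcs1 and Insig1, against 6.05% of all genes, and the longer TCACNCCAC in Hmgcs1 alone, against 1.23%. The Hmgcs1 match lay 136 bases before the start and that of Insig1 lay 9 bases before it. CACNCCAC is contained in TCACNCCAC, so matches to both are counted under each. A match describes the letters of a window and is not shown to be a binding site.

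Most of the synthesis pathway was expressed at a lower level in hippocampus than in prefrontal cortex. Averaged over the 8 groups of each tissue, 27 of the 34 genes differed, 20 lower and 7 higher in hippocampus, where 65.8% of 20598 genes were called (34.8% higher, 31% lower). Among the synthesis enzymes 15 of 19 were lower and 0 higher. Hmgcs1, which condenses acetyl units into HMG-CoA, ran from 4398 to 8054 with a median of 5619 in 48 hippocampal libraries and from 5889 to 10472 with a median of 7755 in 48 cortical libraries. The ranges overlapped across animals, yet in each of the 48 pairs of libraries with the same group and sample number, which may be from the same animal, the hippocampal value was the lower. The difference was -0.44 ± 0.03 on the log2 scale (SE).

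The other called enzymes lay in the same direction with smaller differences. Fdft1, the squalene synthase, was at 1397 ± 203 in hippocampus and 1870 ± 252 in cortex (SD, n = 48 each), a log2 difference of -0.42. Fdps, the farnesyl diphosphate synthase, differed by -0.35, Acat2, the first thiolase, by -0.35, and Hsd17b7, a sterol ketoreductase, by -0.31. Sqle, the squalene epoxidase, differed by -0.27 and Cyp51 by -0.25. The hippocampal value was below the cortical one in all 48 such pairs for Fdft1, Acat2, Hsd17b7, Sqle and Cyp51, and in 45 of 48 for Fdps. The 4 enzymes without a call were Pmvk (phosphomevalonate kinase, -0.07), Ggps1 (the branch to prenyl groups, -0.01), Ebp (sterol isomerase, -0.05) and Dhcr7 (which completes cholesterol, 0.05).

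The regulators and transport genes differed in both directions, also within a role. Stard4, which carries cholesterol between membranes, had the largest difference of the 34 genes, with 622 ± 69 in hippocampus and 1077 ± 144 in cortex (SD, n = 48), a log2 difference of -0.79 ± 0.03. Among the genes lower in hippocampus, Cyp46a1 followed with 2936 ± 333 against 4567 ± 563, a difference of -0.63 ± 0.03, and Insig1 with 1252 ± 174 against 1732 ± 235, a difference of -0.47 ± 0.03. All 3 were lower in hippocampus in 48 of 48 pairs, as was Srebf2 (-0.31). On the efflux side Nr1h3 was higher in hippocampus, at 86.0 ± 13.5 against 60.9 ± 12.7 (SD, n = 48) in 45 of 48 pairs, a difference of 0.50 ± 0.06. Abca1 was higher by 0.17 ± 0.06 in 38 of 48 pairs. The related pump Abcg1 was at 1938 ± 100 against 1905 ± 132 and was not called (0.03 ± 0.02), while Nr1h2 differed by -0.18. Insig2 (0.14), Srebf1 (0.09), the esterifying enzyme Soat1 (0.12), the lysosomal carrier Npc2 (0.13) and Mylip (0.21), a ubiquitin ligase induced by LXR that removes lipoprotein receptors, were the other genes called higher.

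**Figure D1:**
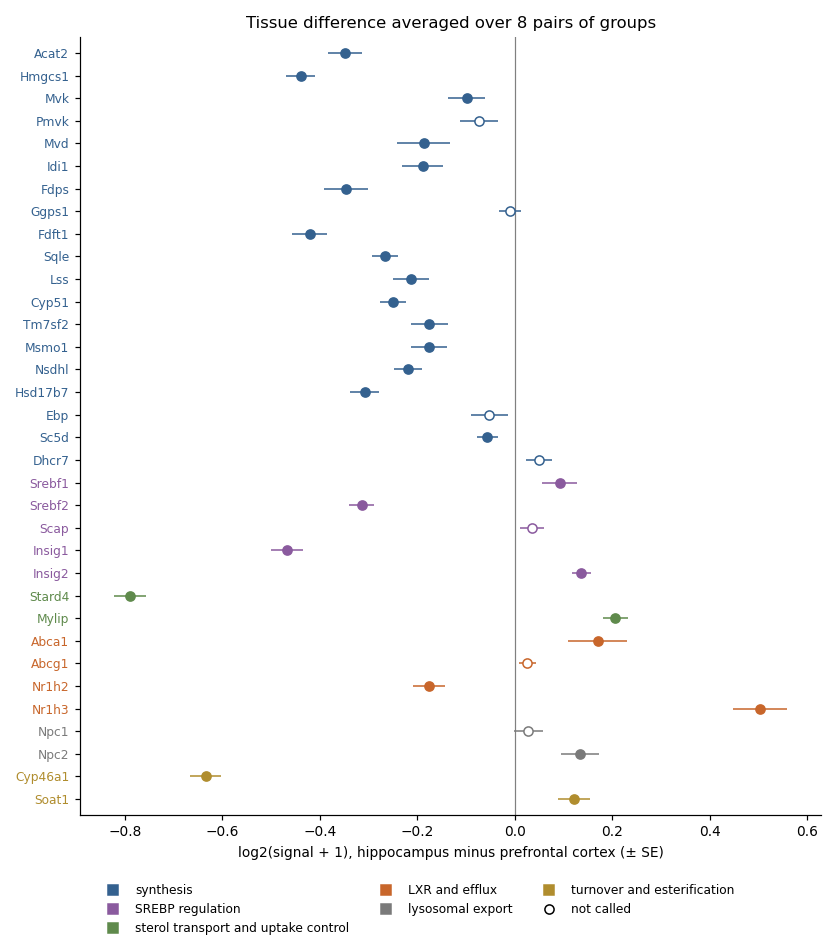
Difference between hippocampus and prefrontal cortex for each of the 34 genes, as log2 with SE on the horizontal axis, grouped by role, open symbols marking genes not called. Stard4 at -0.79, Cyp46a1 at -0.63 and Insig1 at -0.47 lie farthest to the lower side and Nr1h3 at 0.50 farthest to the higher side.

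Cell markers also differed between the tissues. Of 15 oligodendrocyte markers 13 were called higher in hippocampus (median difference 0.34), 10 of 12 astrocyte markers were higher and 2 lower (median 0.27), and 8 of 10 neuron markers were lower and 1 higher (median -0.31). All 8 choroid plexus markers were higher in hippocampus (median 3.67) and all 8 markers of striatal projection neurons were lower (median -2.59), 2 lists for structures beside the named regions. The part of cell composition in the tissue differences was not tested. The tissue call counted 24 genes without the libraries that stood apart (6 higher, 18 lower, beside 61.8% of all genes) and 28 with the class term (beside 71.2%).

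Maternal immune activation was first examined in control animals, where Hmgcs1 and Cyp51 in hippocampus were higher in every MIA female than in any saline female. In MIA control females Hmgcs1 was at 5878, 6822 and 8100 (lowest, median and highest of 7), and in saline control females at 4556, 5440 and 5840 (of 6). The lowest MIA library lay above the highest saline library, and the difference was 0.35 ± 0.07 on the log2 scale (adjusted p = 0.114). Cyp51 was at 1496, 1622 and 1913 in MIA control females and at 1272, 1314 and 1414 in saline control females. These groups did not overlap either, with a difference of 0.32 ± 0.07 (adjusted p = 0.114). Over all 19938 genes tested, 0.0752% had groups that did not overlap with MIA higher. Msmo1, which acts downstream of Cyp51 on the lanosterol skeleton, was at 1828, 2176 and 2698 against 1434, 1822 and 1962. Its groups overlapped, and its difference was 0.35 ± 0.10 (adjusted p = 0.410).

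limma called 0 of the 34 genes in this comparison, where 0.00502% of all genes were called, edgeR called 0 and DESeq2 called 2, Hmgcs1 and Cyp51 (adjusted p = 0.0115 each, beside 0.089% of all genes). With the class term limma called 3 genes, against 0.0502% of all genes: Hmgcs1 (0.38, adjusted p = 0.015), Cyp51 (0.34, adjusted p = 0.0175) and Msmo1 (0.40, adjusted p = 0.0376). Without the libraries that stood apart the estimates were 0.39, 0.33 and 0.44, with adjusted p = 0.667, 0.667 and 0.839. At an unadjusted p under 0.05, 11 of the 34 were higher and 2 lower (Srebf1, -0.29, and Nr1h3, -0.35), beside 613 higher and 665 lower of all genes. Of the 19 synthesis enzymes 15 had estimates above 0 (median 0.13, near 0 over all genes) and 9 of these lay under p 0.05. The efflux pumps Abca1 (0.02 ± 0.14) and Abcg1 (0.04 ± 0.04) had estimates close to 0. All 15 oligodendrocyte markers had estimates above 0 as well (median 0.11, 0 called), and all 10 microglia markers below 0 (median -0.12, 0 called). Their summed level for oligodendrocytes ran from 84830 to 142927 in MIA control females and from 95617 to 138382 in saline control females, and its part in the result was not tested.

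The other MIA comparisons within a sex and inhibitor group gave 0 calls by limma, edgeR and DESeq2 among the 34 genes, beside 0% of all genes by limma. In cortex of control females Cyp51 was higher by 0.25 ± 0.07 (adjusted p = 0.713), Stard4 by 0.22 and Hmgcs1 by 0.17, with overlapping groups, and 3 of the 34 were higher and 0 lower at an unadjusted p under 0.05, beside 436 higher and 556 lower of all genes. In control males the 5 hippocampal MIA libraries had Hmgcs1 at 4997, 5656, 6341, 6641 and 6980, and the 6 saline libraries ran from 5490 to 6646 with a median of 5724. The MIA values surrounded the saline values, and the difference was 0.05 ± 0.08 (adjusted p = 1.00). Whether the MIA difference itself differed between the sexes was not tested. In PLX females Idi1 differed by 0.35 ± 0.12, Cyp51 by 0.18 ± 0.07 and Srebf1 by -0.20 ± 0.10 in hippocampus (adjusted p = 0.998 each), and Cyp46a1 by 0.20, Mvd by 0.33 and Idi1 by 0.22 in cortex. Over PLX females, control males and PLX males, between 0 and 4 of the 34 genes had an unadjusted p under 0.05 in each tissue. The matching numbers over all genes are not given here, so these counts are not set against a background. The smallest p in control males belonged to Cyp51 (0.12), Srebf2 (0.10) and Stard4 (0.11) in hippocampus and to Ggps1 (0.12), Scap (-0.11) and Cyp51 (0.12) in cortex. In PLX males it belonged to Nr1h3 (-0.28), Insig1 (0.14) and Lss (0.14) in hippocampus and to Scap (0.12), Srebf2 (0.12) and Insig2 (-0.09) in cortex.

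Averaged over sex and inhibitor, MIA gave estimates above 0 for 19 of 19 synthesis enzymes in hippocampus (median 0.05) and 16 of 19 in cortex (median 0.03), with 0 of the 34 genes called by limma or edgeR in either tissue. A subset of the enzymes varied together between libraries, as given below. Their signs, here and in the other comparisons, are therefore not 19 separate observations. DESeq2 called 1 gene in hippocampus (beside 0.0502% of all genes) and 0 in cortex. limma called 0% of all genes in either tissue. Cyp51 had the smallest p in hippocampus, 0.17 ± 0.04 (adjusted p = 0.152), and with the class term it was the 1 gene of the 34 called (0.18, adjusted p = 0.0364, beside 0.01% of all genes). Without hippocampal MIA PLX female library 4, 1 gene of the 34 was called (beside 0.01% of all genes). In cortex it was 0.11 ± 0.04 (adjusted p = 0.736). Hmgcs1 was at 0.14 and 0.09 in hippocampus and cortex, Idi1 at 0.21 and 0.12, Sqle at 0.08 and 0.06 and Insig1 at 0.09 in each. Dhcr7 in cortex was at 0.09, and Cyp46a1 (0.01 and 0.05) and Abca1 (-0.01 in each) had estimates near 0. At an unadjusted p under 0.05, 9 of the 34 were higher and 0 lower in hippocampus, and 3 higher and 0 lower in cortex. Over all genes 489 were higher and 460 lower of 19938 in hippocampus, and 587 higher and 596 lower of 19841 in cortex.

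**Figure D2:**
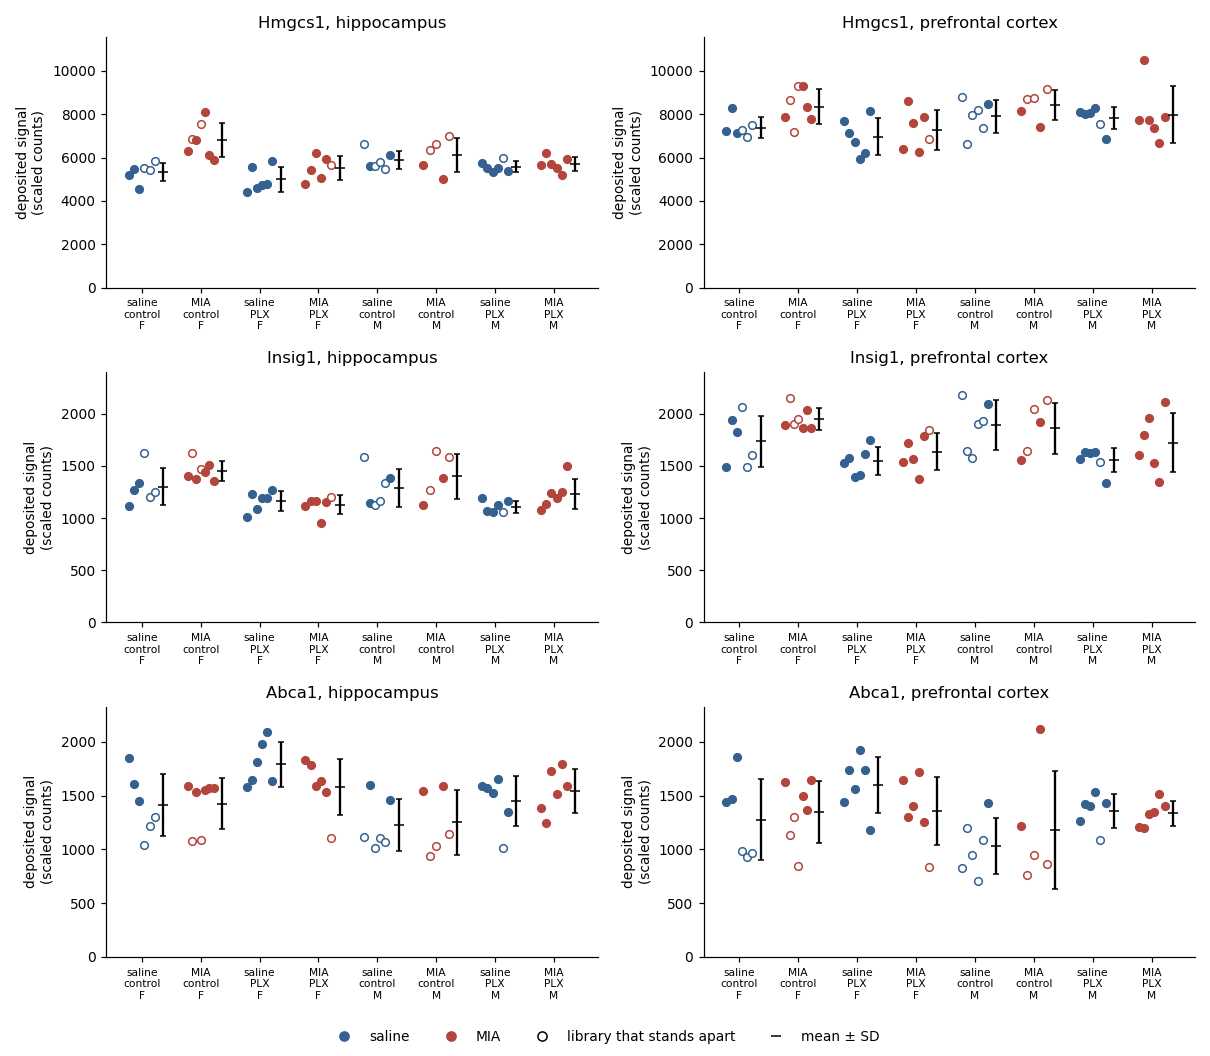
Signal (vertical axis) of Hmgcs1, Insig1 and Abca1 in every library of the 8 groups in each tissue, blue for saline and red for MIA, open symbols for libraries that stood apart, with mean and SD in black. In hippocampus all 7 MIA control females lie above all 6 saline control females for Hmgcs1, and for Insig1 the MIA PLX females lie below the MIA control females in both tissues.

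The inhibitor was compared with control inside each of the 4 combinations of MIA and sex. Insig1, the sterol-sensing brake on SREBP, was lower in MIA females given PLX in both tissues without overlap. In hippocampus it was at 947.7, 1160 and 1205 (lowest, median and highest of 6) with PLX and at 1354, 1446 and 1629 (of 7) in control, a log2 difference of -0.37 ± 0.08 (adjusted p = 0.179). In cortex it was at 1374, 1641 and 1849 with PLX and at 1862, 1898 and 2154 in control, a difference of -0.26 ± 0.09 (adjusted p = 0.472). Among all genes tested, 0.115% in hippocampus and 0.131% in cortex had PLX groups wholly below control in MIA females. The tissues share sample labels and may share animals, so they are not taken as independent. With the class term the Insig1 differences were -0.36 (adjusted p = 0.114) and -0.25 (adjusted p = 0.226).

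The same animals had lower estimates for synthesis enzymes. Hmgcs1 differed by -0.30 ± 0.07 in hippocampus (adjusted p = 0.211) and by -0.21 ± 0.08 in cortex (adjusted p = 0.559), and Msmo1 by -0.27 ± 0.10 and -0.19 ± 0.10. In hippocampus 16 of the 19 enzymes had estimates below 0 (median -0.14), and Abca1 was at 0.15 ± 0.14. This comparison and that of MIA with saline in control females share the MIA control females, so their opposite signs are not separate evidence. For Hmgcs1 the interaction of MIA and PLX in females was -0.20 ± 0.11 in hippocampus (adjusted p = 0.933), and for Insig1 -0.22 ± 0.12 (adjusted p = 0.933). Of the microglia markers 9 of 10 had estimates below 0 in hippocampus (median -0.14, 0 called) and 8 of 10 in cortex (median -0.25, 1 called), and their part in these differences was not tested.

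In the other strata Insig1 had estimates of -0.15 ± 0.09 (saline females), -0.21 ± 0.09 (saline males) and -0.18 ± 0.09 (MIA males) in hippocampus, and -0.16, -0.27 and -0.12 in cortex, with overlapping groups. Fdps in hippocampus of MIA males was also without overlap, at 61.8, 90.4 and 100.9 in 6 PLX libraries and at 101.2, 107.2, 107.8, 115.3 and 128.3 in the 5 controls. The gap between the groups was narrow, the difference was -0.37 ± 0.14 (adjusted p = 0.101), and 1.08% of all genes had PLX wholly below control there. limma and edgeR called 0 of the 34 genes in all 8 comparisons. The share of all genes that limma called was 0.0301% in saline females, 0.00502% in MIA females, 0.0251% in saline males and 0.00502% in MIA males in hippocampus, and 0.0252%, 0.0252%, 0.338% and 0.0202% in cortex. DESeq2 called 1 in hippocampus of MIA females, Insig1 (adjusted p = 0.0487, beside 0.0381% of all genes), 7 in cortex of saline males (beside 9.29%) and 0 elsewhere. At an unadjusted p under 0.05 the number of the 34 lower with PLX ran from 4 to 9 in hippocampus and from 4 to 13 in cortex, and the number higher from 0 to 3. Over all genes the number lower ran from 569 to 2548 of 19938 in hippocampus and from 708 to 2621 of 19841 in cortex, and the number higher from 969 to 3084 and from 797 to 2885.

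The genes with the smallest p varied between these strata. In hippocampus they were Pmvk (-0.27), Abca1 (0.36) and Mylip (-0.19) in saline females, Mvk (-0.35), Mvd (-0.44) and Fdps (-0.37) in saline males, and Npc1 (0.27), Acat2 (-0.32) and Pmvk (-0.31) in MIA males. In cortex they were Acat2 (-0.26), Mvd (-0.40) and Npc2 (-0.23) in saline females, Nsdhl (-0.23), Insig1 and Hmgcs1 in MIA females, Mvk (-0.37), Mvd (-0.53) and Ggps1 (0.21) in saline males, and Pmvk (-0.36), Fdps (-0.35) and Npc1 (0.23) in MIA males. Single libraries decided whether any were called in MIA males of both tissues and in saline males of cortex. In saline males of hippocampus 0 were called whichever library was left out. In MIA males 9 of the 34 were called in hippocampus without control library 2 (beside 18.2% of all genes) and 4 without control library 5 (beside 14.7%), and in cortex 1 without control library 2 (8.62%) and 4 without control library 5 (10.1%). In cortex of saline males 9 were called without control library 6 (19.3%) and 9 without PLX library 5 (2970 of 19832 genes). The control libraries named here did not stand apart, and PLX library 5 did. Each omission therefore left the classes more uneven between control and PLX.

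Averaged over MIA and sex, many synthesis genes were lower and Abca1, Npc1 and Soat1 higher with PLX as the libraries stand. Those calls were not made in fits that allowed for the libraries that stood apart. The classes came from the same expression values, and 12 of the 14 such libraries in hippocampus and 14 of the 16 in cortex were controls. An inhibitor effect on this RNA state and a class unrelated to the inhibitor therefore cannot be told apart. In hippocampus 17 of the 34 genes were called, 14 lower and 3 higher, beside 40% of all genes (20.8% higher, 19.2% lower). In cortex 15 were called, 11 lower and 4 higher, beside 37.8% (19.7% higher, 18.1% lower). The synthesis enzymes accounted for 11 of the lower calls in hippocampus and 9 in cortex, with Ggps1 the 1 enzyme called higher (0.09, cortex). With the class term 0 of the 34 were called in either tissue by limma (beside 0.376% and 0.242% of all genes), and without those libraries 0 were called (beside 0.0457% and 0.302%). With the term 1 gene was higher and 10 were lower at an unadjusted p under 0.05 in hippocampus, and 0 higher and 5 lower in cortex, where over all genes 1616 were higher and 1338 lower in hippocampus and 1082 and 1077 in cortex. On the reads as they stand edgeR called 18 and 14 of the 34 (beside 39.6% and 37.4% of all genes) and DESeq2 18 and 15 (beside 40.5% and 38.4%).

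Mvd, the mevalonate diphosphate decarboxylase, had the largest difference of the 34 genes in each tissue. It was at 330 ± 48 with PLX and 412 ± 83 in control in hippocampus (SD, n = 24 each), a log2 difference of -0.31 ± 0.07 (adjusted p = 0.00123). With the term this became -0.21 (adjusted p = 0.150). In cortex Mvd differed by -0.33 ± 0.08, and by -0.17 with the term. Fdps differed by -0.30 and -0.26, mevalonate kinase Mvk by -0.26 and -0.23, Acat2 by -0.23 and -0.25, and Pmvk by -0.22 and -0.26, in hippocampus and cortex. With the term the estimates of Pmvk were -0.05 in each tissue. Among later enzymes Fdft1 differed by -0.22 and -0.16, Msmo1 by -0.18 and -0.17 and Nsdhl by -0.12 in each. Hmgcs1 was called in hippocampus (-0.14 ± 0.04, adjusted p = 0.0044) and not in cortex (-0.10 ± 0.04, adjusted p = 0.066). Sqle was likewise called in hippocampus (-0.12, adjusted p = 0.0075) and not in cortex (-0.09, adjusted p = 0.051), as was Cyp46a1 (-0.12, adjusted p = 0.0204, and -0.10, adjusted p = 0.0693). The tissue difference of these inhibitor effects was not tested. Cyp51 (-0.10) was called in hippocampus and Npc2 (-0.16) and Dhcr7 (-0.11) in cortex.

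The estimate of Insig1 depended less on the library classes, although its call was also lost. Among libraries that did not stand apart it was at 1115, 1362 and 1508 (lowest, median and highest) in 12 hippocampal controls and at 947.7, 1163 and 1499 in 22 PLX libraries, with overlapping ranges. Its average difference was -0.23 ± 0.04 in hippocampus (adjusted p = 0.00061) and -0.18 with the term (adjusted p = 0.0601). In cortex it was -0.20 ± 0.05 (adjusted p = 0.00205) and -0.18 with the term (adjusted p = 0.159). Of the lower genes in hippocampus Mylip also moved little, from -0.13 to -0.13 (adjusted p = 0.148 with the term).

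Abca1 went the other way. As the libraries stand it was higher with PLX by 0.27 ± 0.07 in hippocampus (adjusted p = 0.0036) and by 0.27 ± 0.10 in cortex (adjusted p = 0.0261). With the term the values were 0.04 (adjusted p = 0.690) and -0.07 (adjusted p = 0.799), so the cortical sign turned. Without MIA control male library 3 the cortical call was lost (0.23, adjusted p = 0.0538). Npc1, which exports cholesterol from lysosomes, was higher by 0.17 and 0.15, and Soat1 by 0.14 and 0.17, and with the term Npc1 was at 0.05 and 0.02 and Soat1 at 0.04 and -0.01. Abcg1, the other pump, was not called (0.04 ± 0.02 and 0.06 ± 0.03).

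**Figure D3:**
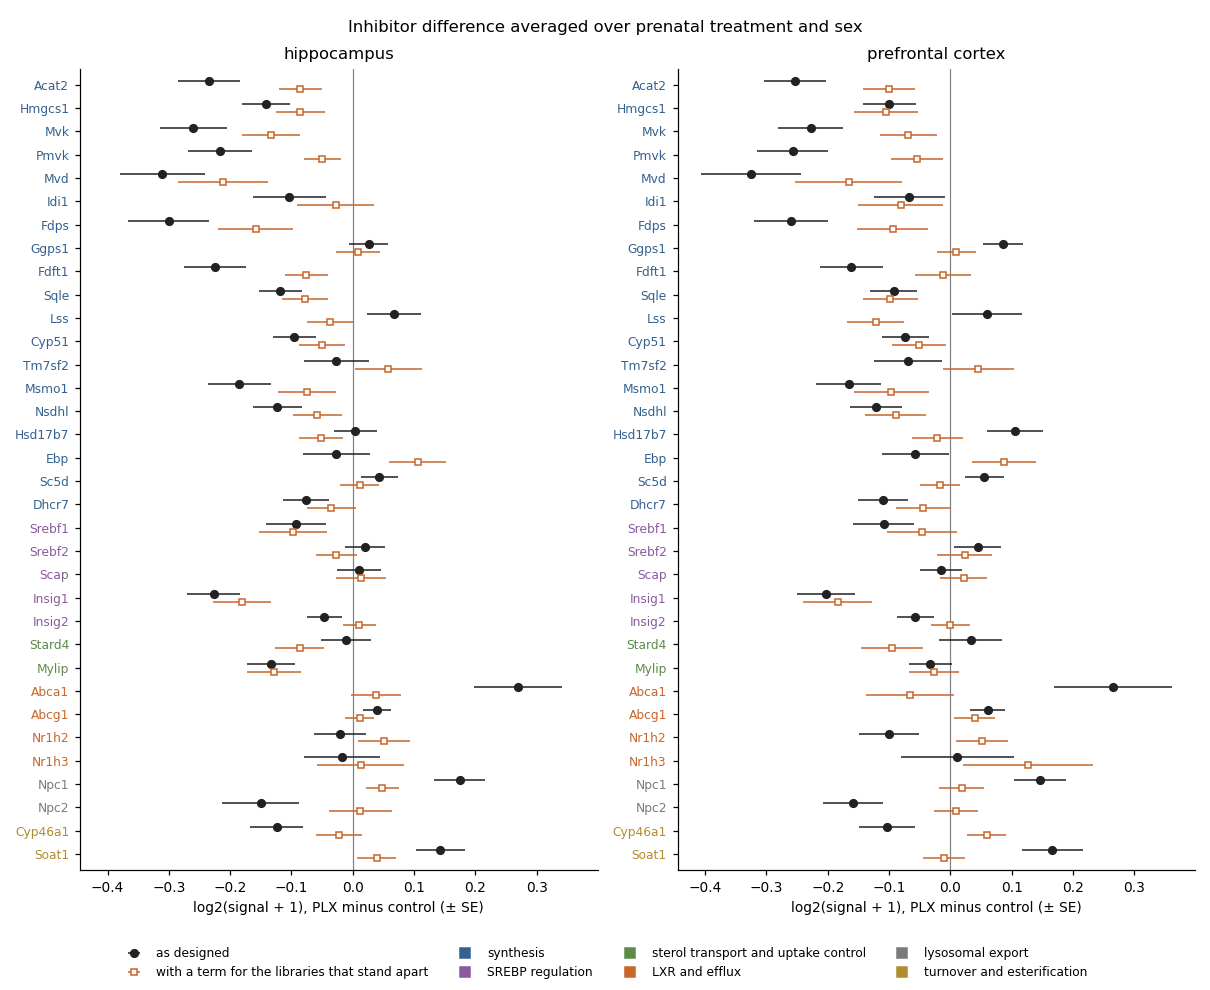
Average log2 difference between PLX and control with SE (horizontal axis) for the 34 genes in each tissue, as the libraries stand (black circles) and with a term for the libraries that stood apart (orange squares). Abca1 moves from 0.27 to 0.04 in hippocampus and to -0.07 in cortex, while Insig1 moves from -0.23 to -0.18 in hippocampus.

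Related lipid genes were counted in the same average, where 20.8% of all genes were called higher and 19.2% lower in hippocampus and 19.7% higher and 18.1% lower in cortex. Of 20 other sterol exporters and lipoprotein receptors, 6 were called higher in hippocampus and 7 in cortex and 0 lower, among them the receptor Lrp1 (0.30 in each tissue), the receptor Lrp8 (0.19 and 0.30) and the transporter Abca2 (0.22 and 0.18). Of 12 genes of the isoprenoid branch, 7 were lower in each tissue and 1 was higher in cortex, with the prenyl transferase subunits Fnta (-0.13 and -0.15) and Rabggta (-0.15 and -0.16) among the lower. Of 12 further genes of SREBP processing, 1 was higher and 4 lower in hippocampus and 2 higher and 3 lower in cortex. Of 15 SREBP targets of fatty acid synthesis, 2 were higher and 2 lower in hippocampus and 3 higher and 1 lower in cortex. In these 4 lists 0 genes were called with the class term in either tissue.

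Abca1 and many of the synthesis enzymes differed in opposite directions between the library classes. In hippocampus Abca1 ran from 939 to 1300 in the 14 libraries that stood apart and from 1246 to 2087 in the other 34, a log2 difference of -0.54. Pmvk ran from 742 to 941 and from 556 to 734, a difference of 0.39. Npc1 ran from 1323 to 1537 and from 1571 to 1999, a difference of -0.29. In cortex Abca1 differed by -0.65, Pmvk by 0.40 and Soat1 by -0.35 (878 to 1057 against 1078 to 1405). Not all synthesis enzymes shared the sign: Lss, the lanosterol synthase, was lower in the libraries that stood apart (-0.24 and -0.36), and Hmgcs1 (0.13 and -0.01) and Sqle (0.09 and -0.01) differed little. The 4 LXR and efflux genes did not share the sign of Abca1 either: Abcg1 was at -0.06 and -0.04, Nr1h2 at 0.17 and 0.30 and Nr1h3 at 0.07 and 0.23 in hippocampus and cortex. Over the 19 enzymes the median was 0.18 in hippocampus (15 above 0) and 0.13 in cortex (12 above 0). Over all genes tested the differences ran from -2.74 to 2.03 in hippocampus and from -2.95 to 1.47 in cortex. The share of all genes whose ranges did not overlap between the classes was not counted. These values describe classes drawn from the data and carry no test.

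For each library the mean log2 level of Abca1 and Abcg1 was subtracted from the mean log2 level of the 19 synthesis enzymes, a quantity that has meaning only as a difference between libraries. In hippocampus it was -0.83 ± 0.11 in the 12 controls that stood apart and -1.29 ± 0.13 in the other 12 controls (SD). In PLX libraries that did not stand apart it was -1.37 ± 0.15 (n = 22), and the 2 that did were at -0.89 and -0.88. In cortex the values were -0.57 ± 0.21 (n = 14) and -1.05 ± 0.19 (n = 10) for controls and -1.07 ± 0.21 (n = 22) for the other PLX libraries. Within the libraries that did not stand apart, control and PLX therefore differed by less than 1 SD in both tissues.

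**Figure D4:**
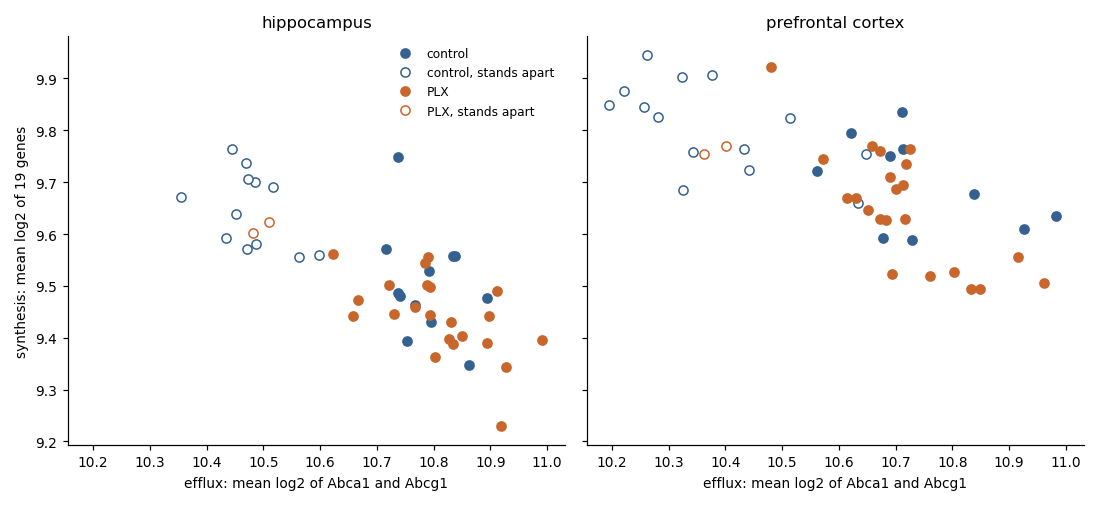
Mean log2 signal of the 19 synthesis enzymes (vertical axis) against that of Abca1 and Abcg1 (horizontal axis) in each library of each tissue, blue for control and orange for PLX, open symbols for libraries that stood apart. In hippocampus the open symbols lie to the low-efflux side of the filled ones. In cortex the sides mix, with open symbols up to 10.65 and filled ones down to 10.48. Among filled symbols the control and PLX libraries overlap.

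Between females and males limma called 0 of the 34 in either tissue, beside 0.246% of all genes in hippocampus and 0.141% in cortex, and edgeR and DESeq2 called 0. Synthesis estimates were below 0 in females for 17 of 19 enzymes in hippocampus (median -0.05) and 19 of 19 in cortex (median -0.09), and 4 and 9 of them lay under an unadjusted p of 0.05, beside 754 and 632 of all genes lower in females. In cortex Fdps was at 113 ± 17 in 25 female libraries and 129 ± 24 in 23 male libraries, a difference of -0.19 ± 0.06 (adjusted p = 0.453), and the ranges overlapped. Pmvk (-0.16) and Mvd (-0.21) had the next smallest p. In hippocampus Abca1 was at 1547 ± 280 in females and 1373 ± 265 in males, a difference of 0.19 ± 0.07 (adjusted p = 0.460), followed by Cyp51 (-0.09) and Sqle (-0.08). The libraries that stood apart numbered 6 of 25 females and 8 of 23 males in hippocampus and 7 of 25 and 9 of 23 in cortex. For the sex difference of the inhibitor effect and for the interaction of MIA and PLX in either sex, limma, edgeR and DESeq2 called 0 of the 34 genes, beside 0% of all genes by limma, and between 0 and 2 of the 34 had p under 0.05 in each. How many of all genes lay under that p is not given here. For the interaction the smallest p in hippocampus belonged to Nr1h3, with 0.40 ± 0.17 in females (adjusted p = 0.933) and -0.39 ± 0.18 in males (adjusted p = 1.00). Stard4 in females was at -0.22, and Lss (0.20) and Tm7sf2 (0.19) followed in males. In cortex they were Cyp46a1 (0.23), Cyp51 (-0.18) and Stard4 (-0.23) in females and Scap (0.23), Insig2 (-0.15) and Ggps1 (-0.16) in males. For the sex difference of the inhibitor effect they were Tm7sf2 (0.22), Hsd17b7 (-0.14) and Cyp46a1 (0.15) in hippocampus and Scap (0.15), Cyp46a1 (0.19) and Tm7sf2 (0.19) in cortex, as females minus males.

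Across libraries within groups, a subset of the synthesis genes rose and fell with Hmgcs1. Each other gene was fitted on the log2 level of Hmgcs1 with group and class terms, so that a slope of 1 means equal proportional change. In hippocampus 6 of 33 genes were called, all with positive slopes, beside 0.0652% of 19937 genes: Idi1 (1.33 ± 0.14), Msmo1 (1.04 ± 0.10), Cyp51 (0.69 ± 0.10), Stard4 (0.67 ± 0.12), Sqle (0.63 ± 0.11) and Sc5d (0.53 ± 0.09). These were 6 of the 13 genes called in the whole table. In cortex 17 of 33 were called, 14 positive and 3 negative, beside 3.53% of 19840 genes (2.04% positive, 1.49% negative). All 6 hippocampal genes were among the positive ones, with slopes of 1.04 ± 0.10 for Msmo1, 0.88 ± 0.16 for Idi1, 0.72 ± 0.08 for Cyp51, 0.70 ± 0.08 for Sqle, 0.60 ± 0.12 for Stard4 and 0.47 ± 0.07 for Sc5d. Without the libraries that stood apart these slopes were 0.94, 0.70, 0.69, 0.80, 0.79 and 0.55. Nsdhl (0.67), Acat2 (0.51), Fdft1 (0.55) and Hsd17b7 (0.46) were next by p, followed by Fdps (0.61), Dhcr7 (0.45), Insig1 (0.54) and Mvk (0.42). The 14 positive calls depended on the fit, being 6 without the class term (beside 0.232% of all genes called positive).

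The negative slopes in cortex belonged to Abca1 (-0.94 ± 0.16, adjusted p = 0.000787), Srebf1 (-0.66 ± 0.14, adjusted p = 0.00642), the SREBP gene that LXR induces, and Npc1 (-0.37 ± 0.09, adjusted p = 0.0223). Without the libraries that stood apart these slopes were -0.81, -0.56 and -0.20. Without the class term 1 negative slope was called among the 33 genes in cortex, where 0.338% of all genes were called in either direction. In hippocampus Srebf1 had a slope of -0.69 ± 0.19 (adjusted p = 0.0807) and Abca1 one of -0.16 ± 0.16 (adjusted p = 0.643). The Abca1 slopes were not tested against each other. The median slope of the synthesis genes was 0.35 in hippocampus and 0.49 in cortex, that of the 4 LXR and efflux genes -0.22 and -0.39, and that of all genes -0.01 in hippocampus and near 0 in cortex. Genes of the early and late pathway without a call in either tissue were Pmvk (-0.04 and 0.31), Lss (0.14 and -0.13), Tm7sf2, a sterol reductase (-0.18 and 0.25), and Mvd, Ggps1 and Ebp. The promoter windows of Hmgcs1, Idi1, Msmo1, Cyp51 and Sc5d printed above each hold CCAAT, as do windows of 10 of the other 11 synthesis genes with one.

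Among genes outside the 34 with an established symbol, those with the smallest p in hippocampus were Lims1 (0.63 ± 0.12), Rnf141 (0.51), the endothelin receptor gene Ednrb (0.81), Ugp2 (0.67), Ptn (0.67) and Pck2 (-0.60), all called. Oip5os1 (0.57), Tbkbp1 (-0.51), Rhobtb3 (0.62) and Rgs2 (0.62) came next and were not called. The other called gene has only a provisional symbol and is not named. In cortex they included Stmn2 (0.52 ± 0.07), a neuronal microtubule gene, Lhpp (0.63), Snx10 (0.57), Dbpht2 (0.49), Mmd (0.54), Akirin1 (0.51), Tmem30a (0.42), Cdh4 (-0.78) and Dnajb4 (0.58), all called. Hmgcs1 and every other gene of a library share its scaling factor and its RNA. Cell markers had median slopes of 0.23 and 0.26 for oligodendrocytes in hippocampus and cortex. In the same order the medians were 1.22 and 0.49 for choroid plexus and -2.56 and -0.46 for red blood cells. They were -0.04 and 1.28 for striatal projection neurons and 0.17 and -0.08 for astrocytes. limma called 1 of 12 astrocyte markers with a positive and 1 with a negative slope in cortex. It called 0 genes of the other lists named here in either tissue, and the part of cell markers in the slopes was not tested. The number of slopes called moved with the fit: without the class term it was 9 in hippocampus and 7 in cortex (beside 6.14% and 0.338% of all genes), and without the libraries that stood apart 6 and 11 (beside 0.0406% and 0.869%). With Abca1 in place of Hmgcs1 it was 3 in hippocampus, all negative, and 15 in cortex, 13 of them negative (beside 1.55% and 13.4%). Leaving out saline control male library 6 gave 10 calls in hippocampus, where 469 of 19918 genes were called.

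**Figure D5:**
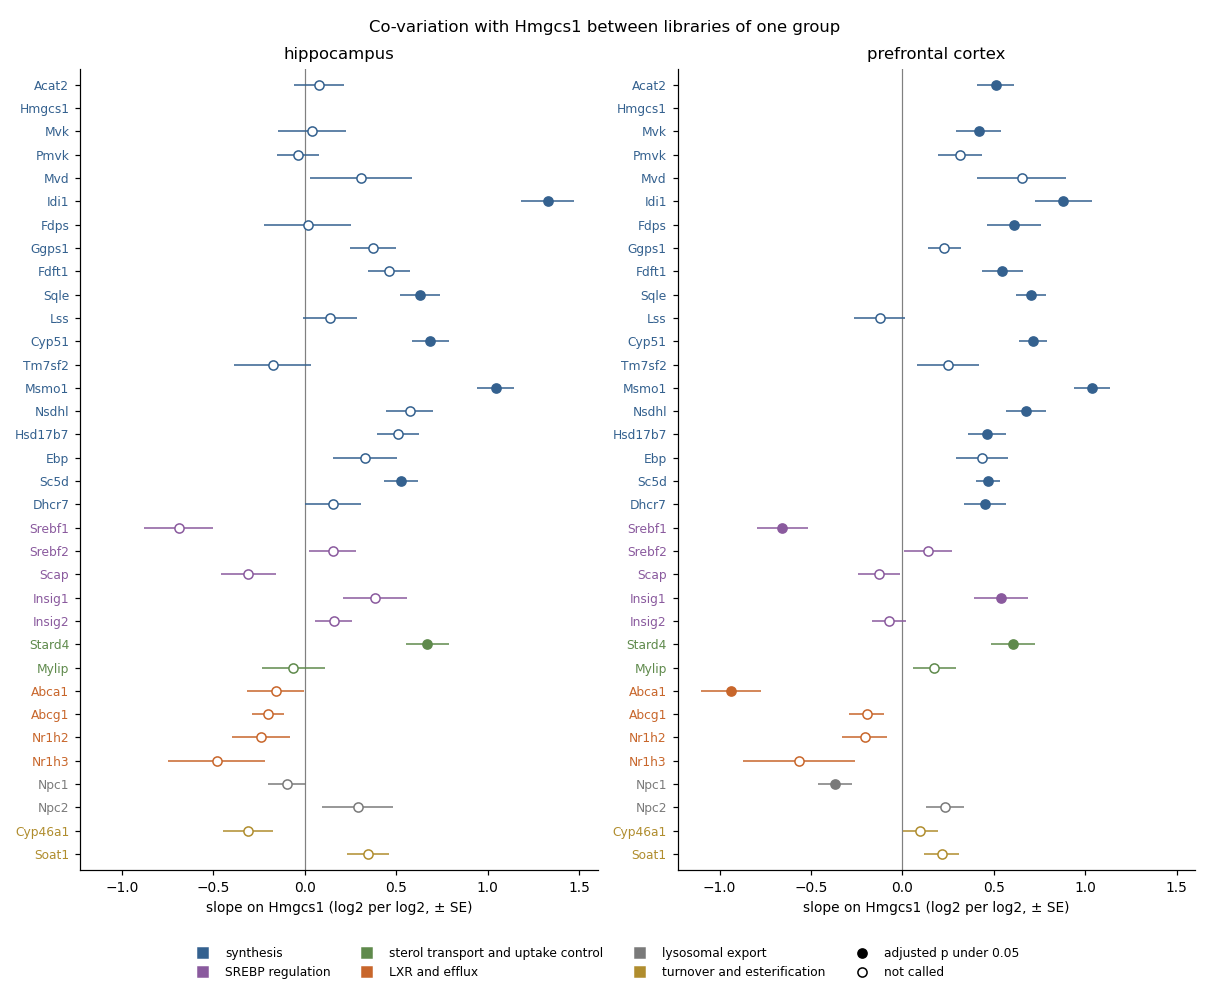
Slope of each of the 33 other genes on the log2 level of Hmgcs1 across libraries (horizontal axis, with SE) in hippocampus and cortex, filled symbols marking genes called. Msmo1 lies at 1.04 in both tissues and Abca1 at -0.16 in hippocampus and -0.94 in cortex.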

How the data were processed

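The 96 libraries form the columns of 1 table with 22709 gene symbols as rows, and per the labels' protocols the libraries were stranded mRNA libraries. The submitters' processing notes name Trimmomatic, STAR 2.6.1d and GRCm39 (mm39); no source used here names the program that counted reads. As deposited, the values are a signal, namely counts that the authors divided by a factor for each library. Multiplied by a recovered factor, 100% of values were whole (tolerance 0.01) in 96 of 96 columns, and these reads served edgeR and DESeq2.

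Groups came from the labels. Each tissue was fitted with limma 3.58.1 in R 4.3.3 on log2(signal + 1) with a variance trend and 8 group means. Differences are on that log2(signal + 1) scale, which understates low genes. A gene entered the tests when 5 or more libraries reached a signal of 10 (19938 genes in hippocampus, 19841 in cortex, the 34 included). All tests were two-sided, and p-values were adjusted over all genes tested by the Benjamini-Hochberg procedure (threshold 0.05). Tissues were compared in 1 model of 16 groups after rescaling all libraries by median ratios. The 34 genes, the other lists and the tests were chosen with earlier results of these data known. In each comparison the called genes were named (10 smallest p per direction), or the 3 with the smallest p where none was called, besides 5 genes of fixed interest in the averaged comparisons. Alternatives were edgeR 4.0.16, DESeq2 1.42.0, a pseudocount of 4, no filter, the class term, omission of the libraries that stood apart, replicate blocks and omission of each library. Scripts were tested on simulated data. A few genes that these rules would name are not reported here.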

Additional observations from a re-analysis of the deposited data

Results flagged for a closer look

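Levels of 10 of the genes were screened in 160 groups of 5 to 7 libraries for a highest or lowest library set apart from the rest by Dixon's 95% criterion, which chance meets in about 1 group in 20. It was met in 9 groups. Hmgcs1 was at 10508 in cortical MIA PLX male library 2, where the others ran from 6684 to 7889. Insig1 was at 947.7 in hippocampal MIA PLX female library 4 (others 1119 to 1205) and at 1336 in cortical saline PLX male library 6 (others 1535 to 1639). Cyp51 was at 1414 in hippocampal saline control female library 4 (others 1272 to 1317), at 1626 in hippocampal saline PLX male library 5 (others 1353 to 1433) and at 1600 in cortical saline PLX male library 6 (others 1773 to 1855). The saline PLX male library 5 of hippocampus also had Cyp46a1 at 3450 (others 2374 to 2777), and it belonged to the libraries that stood apart. Idi1 was at 195 in cortical saline control female library 5 (others 249 to 269), and Sc5d at 2751 in hippocampal MIA control female library 5 (others 1982 to 2232).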

How the results depend on the processing

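Of 216 counts of called genes recomputed with another test, pseudocount, filter or set of libraries, 203 stayed within 1.5 times the reported count, 26 of the 31 reported counts being 0. The class term gave 0 calls for the average inhibitor effect in each tissue, 3 for MIA in hippocampal control females and 1 for average MIA in hippocampus, and omission of the libraries that stood apart gave 0 for the average inhibitor effect in each tissue. DESeq2 gave 2, 1, 1 and 7 for MIA in hippocampal control females, average MIA in hippocampus, PLX in hippocampal MIA females and PLX in cortical saline males. Slopes on Hmgcs1 numbered 7 in cortex without the class term and 11 without those libraries, and slopes on Abca1 numbered 3 in hippocampus. Abca1 under PLX in cortex reversed to -0.065 with the term and -0.093 without those libraries. Among 2620 values of single genes 2561 kept direction and side of the threshold, 14 lost the call, 43 gained it and 2 reversed. The cause was not tested.

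Leaving out 1 library at a time gave 0 to 9 calls for PLX in hippocampal MIA males, 0 to 4 in cortical MIA males, 0 to 9 in cortical saline males, 0 to 1 for average MIA in hippocampus, 16 to 19 and 13 to 19 for average PLX in hippocampus and cortex, 6 to 10 and 14 to 17 slopes, and 27 for the tissues. With no library left out, 40% and 37.8% of all genes were called for average PLX, 0.0652% and 3.53% for slopes and 65.8% for the tissues. For Hmgcs1 and Cyp51 under MIA in hippocampal control females the adjusted p ran from 0.0854 to 0.314 and from 0.0501 to 0.291. With a replicate block for the label number, average PLX gave 18 and 15 calls. The share of all genes called under that block is not given here, and without the block it was 40% and 37.8%. Slopes under the block numbered 6 and 16 (beside 0.0552% and 3.79% of all genes), and the other comparisons within a tissue gave 0. Samples with the same number did not deviate together on average (mean correlation 0.006 in hippocampus and -0.002 in cortex). Single pairs ran from -0.56 to 0.53 in hippocampus and from -0.63 to 0.52 in cortex. A mean near 0 cannot tell whether some samples with the same number share a litter or a batch. Across tissues, pairs with the same label had a mean correlation of 0.285 (-0.097 to 0.687), and a block on the label gave 29 calls between the tissues (beside 72.7% of all genes). Without the libraries that stood apart the smallest groups held 2 libraries in hippocampus and 1 in cortex, which was assumed to vary like the others.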
